A study of Oscheius tipulae with 48 samples.

Results

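These are 150 genes of the free-living nematode *Oscheius tipulae* whose RNA was highest in first-stage (L1) larvae and whose next highest group was not the dauer larva. They were taken from 14558 genes, measured as RPKM (read number relative to the length of the gene and the size of the library) in 48 RNA-seq libraries of 23 groups. Values were averaged as log2(RPKM + 1) over 9 broad groups: 2 to 4-8 cell embryos, 8-16 to 32-64 cell embryos, 64-128 to 150-200 cell embryos, L1, L2 to L4, young with mature adults, males, dauer and post-dauer mature adults. L1 was the mean of replicates 2 and 3. In this average 1618 genes were highest in L1, and 1003 of them reached at least 10 RPKM in both L1 libraries. Dauer was second for 256 of the 1003, which were set aside. Of the remaining 747 genes, the 150 with the largest margin of L1 over the second group are described here.

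All groups were strain CEW1, and males came in addition from the him-1(sy527) mutant, hand-picked at 200 per library. L1 larvae were raised by letting mixed embryos hatch in buffer, where they arrested. Plated on a bacterial lawn at 20 °C, L1 larvae gave the groups L2, L3, L4, young adult and mature adult. Dauer larvae came from liquid culture, and worms grown from them were sampled as L3, as L4, as young and as mature adults, all called post-dauer. Staged embryos came from bleached mothers and developed in buffer at 25 °C. L1 held 3 libraries and each other larval, dauer and adult group 2. Of the 9 embryo stages, 5 held 3 libraries, the 64-128 cell stage held 2, and the 2, 100-150 and 150-200 cell stages held 1 each. Mixed worms (2 libraries) and mixed embryos (1) were sequenced too. The labels do not say whether the L1 libraries were taken before or after plating on food, nor the ages in hours. Replicates are called biological in the library titles and nothing more, so p-values measure only the spread between libraries, which may be technical.

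The L1 larva is the stage that hatches from the egg with the body plan of the worm already laid out. In *Caenorhabditis elegans*, larvae that hatch without food stop at L1, before their blast cells divide, and resume growth and molting when fed. The dauer larva is an alternative to L3, entered under crowding, hunger or heat, that does not feed and carries a thick cuticle. It leaves this state for a post-dauer larva when conditions improve. The table lists genes by ID without names or products, so no role is given to any gene below, the IDs printed are few, and marker genes of the labelled stages were not checked here. The libraries are whole animals, so fewer cells of a type and less RNA per cell cannot be told apart.

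Some libraries stood apart from their group, which touches several results. L1 replicate 1, which the rule did not use, correlated across genes, on the log2(RPKM + 1) scale, at 0.756 with L1 replicate 2 and 0.770 with L1 replicate 3, and at 0.879 with the single 150-200 cell embryo library. L1 replicates 2 and 3 correlated at 0.921. The 2 libraries of young adults, and those of all post-dauer groups but mature adults, correlated at 0.596 to 0.871, and those of the other worm groups at 0.921 to 0.989 with L1 replicate 1 left out. The 3124 genes with a median under 0.5 RPKM over all libraries had raised levels in 5 libraries. Their median was 5.32 RPKM in post-dauer young adult replicate 1, 3.59 in dauer replicate 1, 2.44 in post-dauer L3 replicate 1, 1.55 in dauer replicate 2 and 1.37 in post-dauer L4 replicate 1, and at most 0.54 RPKM in the other 43 libraries. The part of these differences in the results below was not tested, except where values without the libraries are given.

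The chosen genes were of middle to high level in L1 and led their second group by modest amounts. The margins, which chose the members and are given as a description, ran up to 2.61 on the log2 scale with a median of 0.80, a fold of 1.74. The margin was at least 1 for 40 members, at least 1.5 for 11 and at least 2 for 4. The end of the list was not a gap: Oti_g01636 and Oti_g01738, at ranks 149 and 150, had margins of 0.60 and 0.60, and the first genes outside it, Oti_g11122 and Oti_g00462, had 0.60 and 0.59. Their levels in L1 replicates 2 and 3 were 18.3 and 28.3 RPKM for Oti_g01636, 14.1 and 10.7 for Oti_g01738, 48.2 and 56.6 for Oti_g11122, and 22.1 and 18.9 for Oti_g00462. Mean L1 levels of the members lay between 10.4 and 380.1 RPKM with a median of 34.9 RPKM, and 22 members reached 100 RPKM, of 688 genes that did so in the whole table.

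The members' median was 33.0 RPKM in L1 replicate 2 and 35.1 RPKM in L1 replicate 3. It was 19.5 and 21.1 RPKM in the libraries of L2, 20.1 and 12.3 in L3, 14.3 and 13.6 in L4, 7.28 and 10.4 in young adults, and 3.90 and 8.57 in mature adults. Males had 10.5 and 8.96 RPKM and dauer larvae 12.2 and 9.69 RPKM. The medians of L1 replicates 2 and 3 thus lay above those of all other libraries, and mature adult replicate 1 had the lowest of the worm libraries. Members made up 1.97% and 1.64% of all RPKM in L1 replicates 2 and 3, against 0.948% and 1.02% in L2 and 0.993% and 0.737% in dauer. In the 20 staged embryo libraries the members' median lay between 0.15 and 1.23 RPKM.

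**Figure D1:**
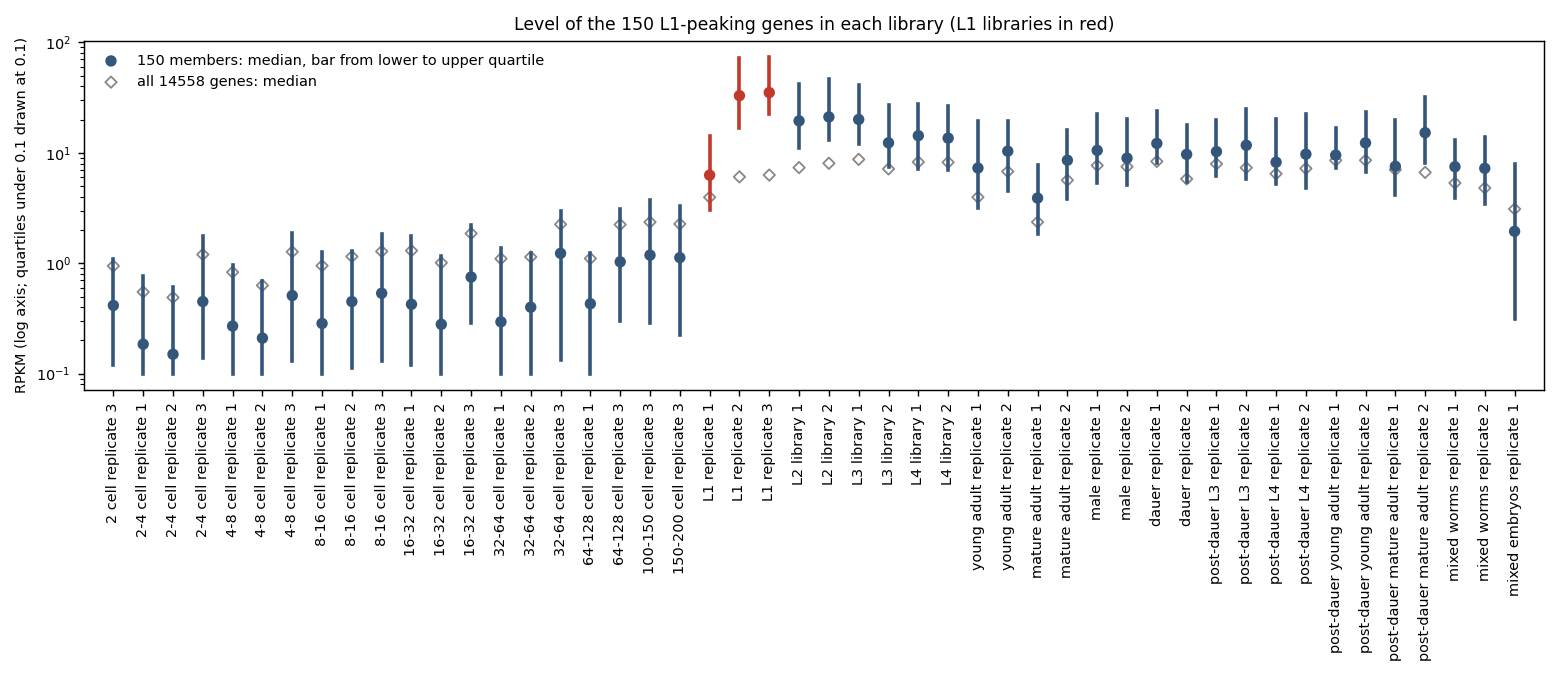
Level of the 150 members in each of the 48 libraries, in RPKM on a log axis: filled points are medians, bars run from the lower to the upper quartile, and open diamonds are medians of all 14558 genes. L1 replicates 2 and 3 (red) have the highest medians, 33.0 and 35.1 RPKM, while L1 replicate 1 (red) has 6.28 RPKM and the staged embryos lie between 0.15 and 1.23 RPKM.

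The label was checked against the stages one by one, since the rule had pooled several. With 21 stages taken singly and L1 as the mean of replicates 2 and 3, 140 of the 150 members were highest in L1. Of the others, 6 were highest in L2, 2 in post-dauer L4, 1 in 100-150 cell embryos and 1 in mature adults. Both L1 libraries lay above every one of the other 46 libraries for 74 members, against 1.5% of all genes, a share that the choice of members raises. After removal of 5 libraries (replicate 1 of dauer, of young adults and of each post-dauer group but mature adults), the counts were 138 highest in L1 and 81 above every other library. With all 3 L1 libraries taken as L1 they were 48 and 2. Shares of all genes were not counted for the 140 members or for these alternatives. The first counts rest on the values that chose the members and are a description, and with all 3 L1 libraries most members were not highest in L1.

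The L1 replicates differed less than the margins for most members. The size of the difference between replicates 2 and 3 had a median of 0.39 on the log2 scale, against a median margin of 0.80, exceeded 0.5 for 60 members and exceeded 1 for 19. It was larger than the member's own margin for 23. Neither replicate was higher throughout: 75 members were higher in replicate 3. The single highest library of a member was L1 replicate 2 for 63, L1 replicate 3 for 63, L1 replicate 1 for 2 and a library of another stage for the rest, most often L2 (8) or L3 (5).

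Members sorted by their second group formed 3 classes of more than 1 gene. The larvae that follow, L2 to L4, were second for 98 members, males for 25 and post-dauer mature adults for 25. In addition 1 member had 8-16 to 32-64 cell embryos second and 1 had 64-128 to 150-200 cell embryos. Young and mature adults, and the earliest embryos, were second for no member, although they were second for 14 and 6 of the 747 candidates.

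**Figure D2:**
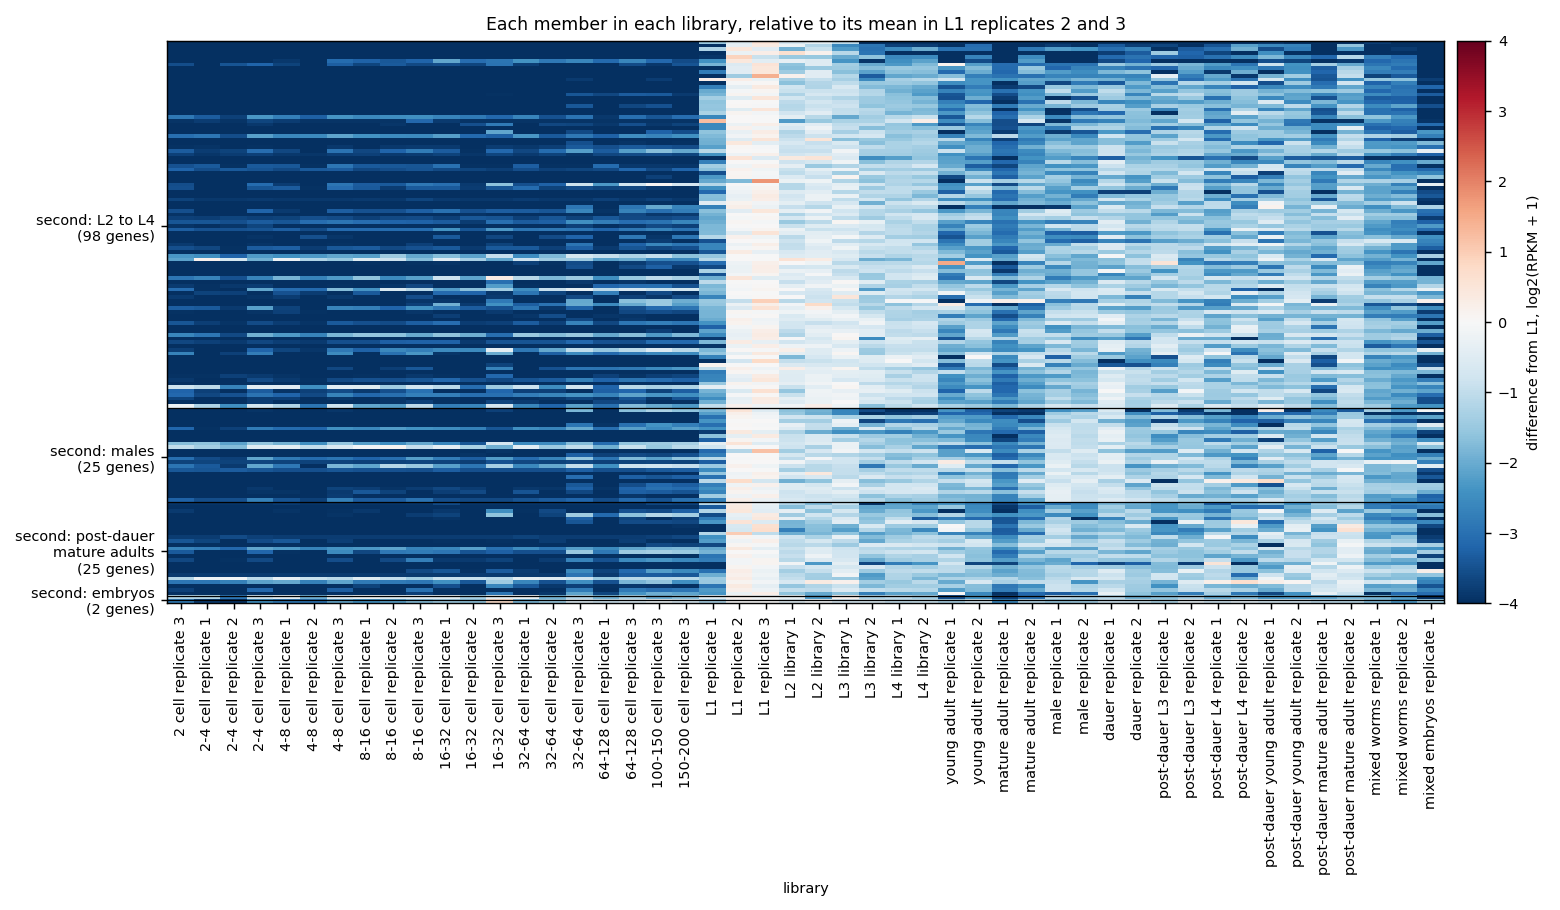
Each member (row) in each library (column) as the difference from its mean in L1 replicates 2 and 3 on the log2(RPKM + 1) scale, grouped by second group; differences beyond 4 are drawn at 4. The column of L1 replicate 1 is paler than those of embryos and darker than those of L2, where the members' median lay 0.73 below L1.

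In the class with L2 to L4 second, stage medians were lower at each larval stage. The median over members was 34.7 RPKM in L1, 20.7 in L2, 18.0 in L3 and 13.9 in L4, then 9.06 in young and 5.93 in mature adults. By library it was 20.4 and 22.2 RPKM in L2 and 20.5 and 12.5 RPKM in L3, so the step between these stages rested on L3 library 2. Oti_g11428 had the largest margin of all members, 2.61. It had 44.1 and 86.2 RPKM in L1 replicates 2 and 3 and 21.3 RPKM in L1 replicate 1, then 38.3 and 46.8 RPKM in L2, 30.3 and 2.17 in L3, and 1.30 and 1.71 in L4. All 3 L1 libraries and both L2 libraries were thus high, L3 was split, and L1 overlapped L2. No library of adults, males, dauer or post-dauer worms exceeded 3.32 RPKM for this gene, and no staged embryo library exceeded 1.09 RPKM.

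Oti_g09258, second in this class with a margin of 2.41, had 41.5 and 69.1 RPKM in L1 replicates 2 and 3 but 0.59 RPKM in L1 replicate 1. Its L2 libraries held 44.0 and 23.4 RPKM, L3 8.11 and 6.16, and L4 3.13 and 2.92. The L1 and L2 libraries overlapped here too, and L1 replicate 1 was as low as embryos, of which the highest held 1.96 RPKM. Post-dauer mature adult replicate 2 stood out among the other libraries at 17.4 RPKM, against 1.43 RPKM in replicate 1.

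In the class with males second, the median level was 34.1 RPKM in L1 and 19.5 RPKM in males. The members' medians were 22.6 RPKM in male replicate 1 and 17.6 in male replicate 2, and 18 of the 25 were higher in replicate 1. Oti_g02720 had the largest margin, 2.32, with 37.8 and 18.3 RPKM in L1 replicates 2 and 3, against 4.00 and 4.96 RPKM in males. Its second place was a near tie. The group means on the log2 scale were 2.45 for males, 2.44 for 64-128 to 150-200 cell embryos and 2.43 for dauer. Both L1 libraries were high, L1 replicate 1 had 6.59 RPKM and L2 had 7.81 and 6.35 RPKM. The dauer and post-dauer young adult pairs were split for this gene: dauer had 16.9 and 0.63 RPKM and post-dauer young adults 31.8 and 0.80 RPKM. Silent genes were raised in both dauer libraries and in the post-dauer young adult library with the high value. Mixed embryos held 25.4 RPKM and 100-150 cell embryos 10.4 RPKM, so the gene's RNA was also found in embryos.

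Oti_g03879, with a margin of 1.25, was among the most abundant members. It had 363 and 276 RPKM in L1 replicates 2 and 3 and 67.4 RPKM in L1 replicate 1, against 118 and 148 RPKM in males. L2 held 109 and 80.7 RPKM and dauer 166 and 55.9 RPKM. The L1 replicates 2 and 3 lay above all other libraries, and no staged embryo library passed 0.46 RPKM.

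In the class with post-dauer mature adults second, the median level was 38.1 RPKM in L1, 21.5 in post-dauer mature adults and 20.3 in L2. The 2 post-dauer mature adult libraries differed: the class median was 19.9 RPKM in replicate 1 and 27.6 RPKM in replicate 2, and 17 of the 25 were higher in replicate 2. Over all members 117 were higher in replicate 2, against 44.7% of all genes. Oti_g02133 had 17.3 and 11.8 RPKM in L1 replicates 2 and 3, against 4.08 and 4.72 RPKM in post-dauer mature adults, a margin of 1.5. The groups did not overlap, and L1 replicate 1, at 6.14 RPKM, lay between them. Oti_g12467 had 216 and 126 RPKM in L1 replicates 2 and 3, against 49.1 and 73.8 RPKM in post-dauer mature adults, with 15.2 RPKM in L1 replicate 1. Here L1 replicate 1 lay below both post-dauer mature adult libraries. The rule pooled L2 with L3 and L4. Taken alone, L2 had a mean above that of post-dauer mature adults for both genes. The means were 4.69 against 4.40 RPKM for Oti_g02133 and 64.9 against 61.5 RPKM for Oti_g12467.

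The single members with an embryo group second had embryo levels near those of L1 or, in a single library, above them. Oti_g02360, named after its values were seen, had 101 and 81.0 RPKM in L1 replicates 2 and 3, 67.6 RPKM in L1 replicate 1, and 77.2, 65.0 and 67.0 RPKM in 8-16 cell embryos. Its L1 and 8-16 cell libraries lay close together, and a library of L3 matched the highest L1 value at 101 RPKM. Oti_g13274, also named after its values were seen, had 29.2 and 28.4 RPKM in L1 replicates 2 and 3, 23.7 RPKM in 100-150 cell embryos and 17.6 RPKM in 150-200 cell embryos. Its highest library was 16-32 cell replicate 3 at 47.1 RPKM, against 10.02 and 8.74 RPKM in the other libraries of that stage. Its L2 libraries, at 19.8 and 26.9 RPKM, lay near L1.

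**Figure D3:**
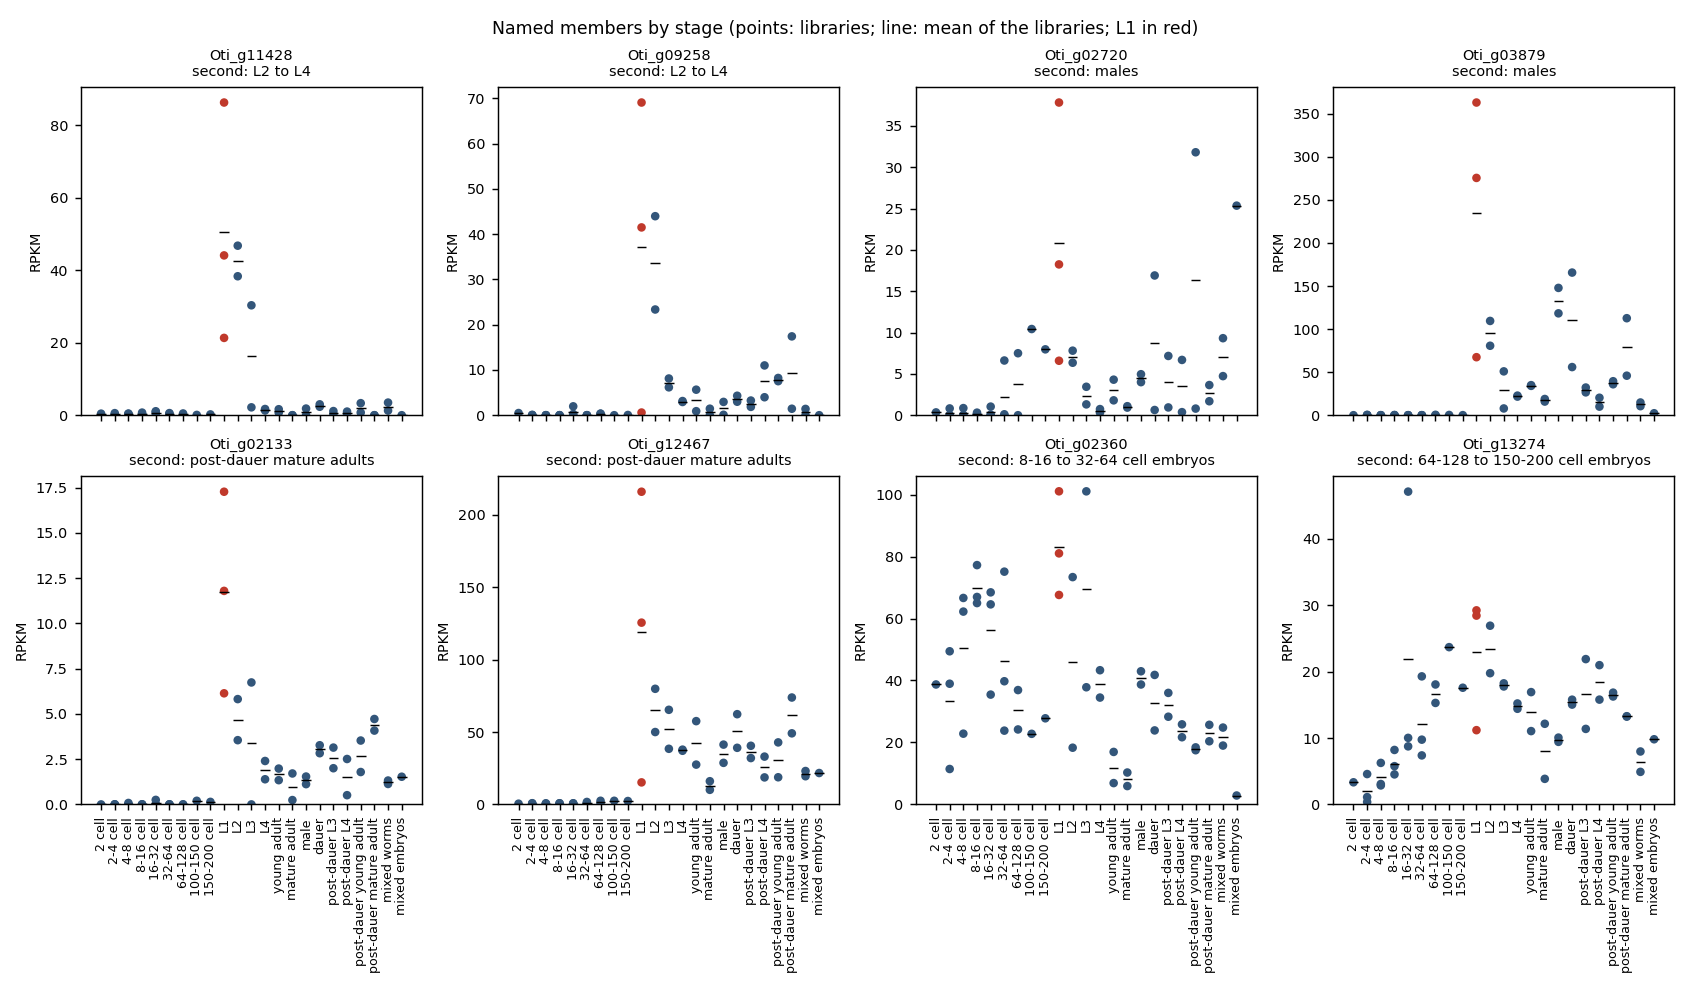
RPKM of 8 members by stage: points are libraries, short lines the mean of a stage's libraries (all 3 for L1), and L1 is red. Oti_g11428 and Oti_g09258 are high in L1 replicates 2 and 3 and in L2, and Oti_g09258 is at 0.59 RPKM in L1 replicate 1 and reaches 17.4 RPKM in a post-dauer mature adult library, whereas Oti_g02360 is as high in 8-16 cell embryos, 65.0 to 77.2 RPKM, as in L1 replicate 1, 67.6 RPKM.

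Over the larval series, members differed from L1 by a growing amount. The members' median difference of L1 minus the stage was 0.73 for L2, 0.99 for L3 and 1.25 for L4 on the log2 scale, where the medians of all genes were -0.07, 0.00 and 0.02. Both L1 libraries lay above both libraries of the stage for 109 members in L2 (17% of all genes), 119 in L3 (21.9%) and 142 in L4 (30.9%). These counts describe the members, since the rule used the mean of L2 to L4. For 68 members the mean was lower at each step from L1 through L2 and L3 to L4. Among the later larvae, L2 was the highest for 100 members, L3 for 38 and L4 for 12. The shares of all genes with these orders were not counted, so the orders cannot be called particular to the members.

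The order within L2 to L4 was not used by the rule, since only their mean entered it. L4 was set against L2 with limma across all genes, where a call needed a Benjamini-Hochberg adjusted p below 0.05 together with an at least 2-fold difference (1 on the log2 scale). No member of the 150 tested was called, against 0.0415% of all genes called higher and 0.0138% called lower in L4. In simulated data this contrast recovered 6 of 100 genes changed by 1.5 on the log2 scale. The lack of calls therefore does not show a lack of change. At an unadjusted p under 0.05, 10 members (6.67%) were found, all lower in L4, against 5.55% of all genes in both directions. The median change was -0.59 for members and -0.12 for all genes, with 128 members lower in L4 and 22 higher. Both L4 libraries lay below both L2 libraries for 101 members, against 36.8% of all genes, and above them for 9, against 24.6%. The call depends on the fit: with only L2 and L4 in it, 24 members were called, 2 higher and 22 lower in L4, of 1599 genes in all.

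The members with the lowest values in L4 relative to L2 were Oti_g11023 and Oti_g11428. Oti_g11023 was highest in L2 when each stage was taken singly. Its L1 replicates 2 and 3 held 65.1 and 92.7 RPKM and L1 replicate 1 held 1.09 RPKM. It had 3.70 and 2.03 RPKM in L4 and 120 and 88.2 RPKM in L2. The stages did not overlap, and the log2 change was -4.79 ± 1.29 (SE), with an adjusted p of 0.464 that ranged from 0.00152 to 1 over the alternatives. Oti_g11428, whose values are given above, had a log2 change of -4.12 ± 0.83, with the lowest adjusted p of any member, 0.0906, and a range of 0.00138 to 1. On the other side, Oti_g09193 had 7.97 and 17.4 RPKM in L4 and 2.14 and 4.34 RPKM in L2, a log2 change of 1.65 ± 0.81 with an adjusted p of 0.917. Oti_g02034 had 138 and 116 RPKM in L4 and 50.1 and 68.6 RPKM in L2, a log2 change of 1.10 ± 1.05 with an adjusted p of 1.

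Adults held less of the members' RNA than L1 replicates 2 and 3. The median difference of L1 minus the stage was 1.98 for young adults (138 members above both libraries, against 32.3% of all genes) and 2.44 for mature adults (147 members, 43.5%). For males it was 1.61 (146 members, 33.6%). Mature adults were also set against young adults, an order that the rule did not use. None of the 150 members was called by limma, nor was any of the 14446 genes tested, a share of 0%. At an unadjusted p under 0.05 there were 9 members, 1 higher and 8 lower in mature adults, and 3.45% of all genes. The median change was -0.53 for members and -0.15 for all genes. Members were lower in mature adults for 127 and higher for 23. After quantile normalization the medians were -0.15 for members and 0 for all genes, with 94 members lower and 56 higher. Both mature libraries lay below both young ones for 53 members (19.7% of all genes) and above them for 1 (6.4%). Without mature adult replicate 1 the median change was -0.03 for members and 0.00 for all genes, and without mature adult replicate 2 it was -0.88 for members and -0.38 for all genes. Without young adult replicate 2, 3 members were called, Oti_g04323, Oti_g01158 and Oti_g09500, among 94 genes called in all.

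These 3 genes were split between the young adult libraries. Oti_g09500 had 6.45 and 23.5 RPKM in mature adults and 293 and 26.6 RPKM in young adults. Only young adult replicate 1 was high, and the change of -2.74 ± 0.95 had an adjusted p of 1, against 0.0443 to 1 over the alternatives. Oti_g01158 had 0.24 and 3.56 RPKM in mature adults and 80.1 and 4.95 RPKM in young adults, again with replicate 1 alone high, and an adjusted p of 0.0443 to 1 over the alternatives. Oti_g04323 ran the other way, with 35.9 and 34.7 RPKM in mature adults and 0.45 and 26.2 RPKM in young adults, and its adjusted p ran from 0.0184 to 1. Oti_g14430, the next in this direction, had 15.1 and 18.2 RPKM in mature adults and 1.16 and 21.9 RPKM in young adults.

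Dauer was not the second group of any member, by choice, but it was not far behind. Among the 8 groups other than L1, with the second group at rank 1, dauer was at rank 2 for 65 members, at rank 3 for 43, at rank 4 for 21, at rank 5 for 19 and at rank 6 for 2. The second group led dauer by a median of 0.42 on the log2 scale, and by at most 0.1 for 26 members and at most 0.5 for 83. In both dauer libraries 69 members reached 10 RPKM, and none was under 1 RPKM in both. L1 exceeded dauer by a median of 1.32, with a range of 0.64 to 4.10, where the median of all genes was -0.21. The difference was at least 1 for 106 members and at least 2 for 30, and both L1 libraries lay above both dauer libraries for 142 members, against 21.3% of all genes. When each library's silent-gene median was first taken off its values, the median of L1 minus dauer was 1.71.

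Post-dauer L3, L4 and young adult worms did not enter the rule. Members held 10.3 and 11.7 RPKM in the post-dauer L3 libraries, 8.23 and 9.72 in post-dauer L4, 9.53 and 12.3 in post-dauer young adults, and 7.55 and 15.2 in post-dauer mature adults, as medians over the 150. The median of L1 minus the stage was 1.44, 1.77, 1.53 and 1.47 in this order, where all genes had -0.20, -0.17, -0.29 and 0.00. Both L1 libraries lay above both libraries for 141 members in post-dauer L3 (18.3% of all genes), 143 in post-dauer L4 (22%), 134 in post-dauer young adults (14.5%) and 141 in post-dauer mature adults (25.6%). L1 itself had chosen the members, so these differences carry no test. Post-dauer L3 lay close to dauer, with a median difference of -0.14 for members and -0.13 for all genes. Set against directly grown L3, the median difference was -0.49 for members and 0.07 for all genes, a contrast that the choice of members partly sets, since L3 and dauer were both groups of the rule and L2 to L4 were second for 98 members.

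The steps after dauer were tested, since neither of their groups was used by the rule. The spread in the fit came also from L1 and other groups of the rule, so p-values of members are not free of it. Between post-dauer L4 and post-dauer L3 no member was called, where 0% of all genes were called higher and 0.0138% lower. At an unadjusted p under 0.05 there were 4 members (2.67%), all higher in post-dauer L4, against 7.94% of all genes. The members' median change was -0.28 and that of all genes -0.09, with 54 members higher and 96 lower. Both post-dauer L4 libraries lay above both post-dauer L3 libraries for 19 members (16.7% of all genes) and below them for 44 (18.4%). The share of members was below that of all genes on the higher side and above it on the lower side. Without post-dauer L3 replicate 1 the median was -0.42 for members and 0.16 for all genes, and without post-dauer L4 replicate 1 it was -0.14 for members and -0.18 for all genes. Without post-dauer L3 replicate 2 the medians were -0.26 and -0.27, and 1 member was called among 126 genes in all. The place of the members relative to all genes thus depended on single libraries.

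Oti_g07215 had the largest value in this step. It had 238 and 276 RPKM in post-dauer L4, against 9.60 and 69.5 RPKM in post-dauer L3. The groups did not overlap, and the log2 change was 3.24 ± 0.87 (SE) with an adjusted p of 0.158. Without post-dauer L3 replicate 2 it was the 1 member called, with a log2 change of 4.60 and an adjusted p of 0.0281, and over the alternatives the adjusted p ran from 0.0281 to 0.967. The gene varied widely within other groups too, with 350 and 126 RPKM in L1 replicates 2 and 3 and 353 and 69.2 RPKM in post-dauer young adults. Oti_g06912 had 25.2 and 33.7 RPKM in post-dauer L4, against 6.62 and 9.0 RPKM in post-dauer L3; the log2 change was 1.79 ± 0.78 with an adjusted p of 0.542. In the other direction, Oti_g11023 had 5.17 and 0 RPKM in post-dauer L4, against 27.6 and 7.82 RPKM in post-dauer L3. Oti_g01158 had 2.86 and 3.25 RPKM in post-dauer L4, against 39.8 and 4.39 RPKM in post-dauer L3. Their adjusted p-values were 0.638 and 0.746.

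Between post-dauer young adults and post-dauer L4 no member and no other gene was called, a share of 0% of all genes. No member had an unadjusted p under 0.05, against 4.11% of all genes, a contrast that the spread between L1 libraries can also set. The median change was 0.22 for members and 0.21 for all genes, with 98 members higher and 52 lower. Both post-dauer young adult libraries lay above both post-dauer L4 libraries for 28 members (12.5% of all genes) and below them for 7 (6.08%). When the silent-gene median was taken off, the members' median was -0.23 and that of all genes -0.27, so the sign of this small difference turned with this subtraction. After quantile normalization the medians were 0.05 for members and 0.00 for all genes. Oti_g11023 had 13.5 and 2.61 RPKM in post-dauer young adults and 5.17 and 0 RPKM in post-dauer L4, with overlap. Oti_g00080 had 8.42 and 11.8 RPKM in post-dauer young adults and 7.94 and 0.77 RPKM in post-dauer L4. Oti_g07153 had 0 and 132 RPKM in post-dauer young adults and 29.2 and 107 RPKM in post-dauer L4, so its direction was set by post-dauer young adult replicate 1, listed at 0. Without post-dauer young adult replicate 2 it was the 1 member called, at -5.83 with an adjusted p of 0.0452, among 2037 genes called in all. Without replicate 1 its change was 1.23, and the adjusted p ran from 0.0452 to 1 over the alternatives. Oti_g02034 had 21.0 and 91.8 RPKM in post-dauer young adults and 65.8 and 252 RPKM in post-dauer L4, with overlapping groups.

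**Figure D4:**
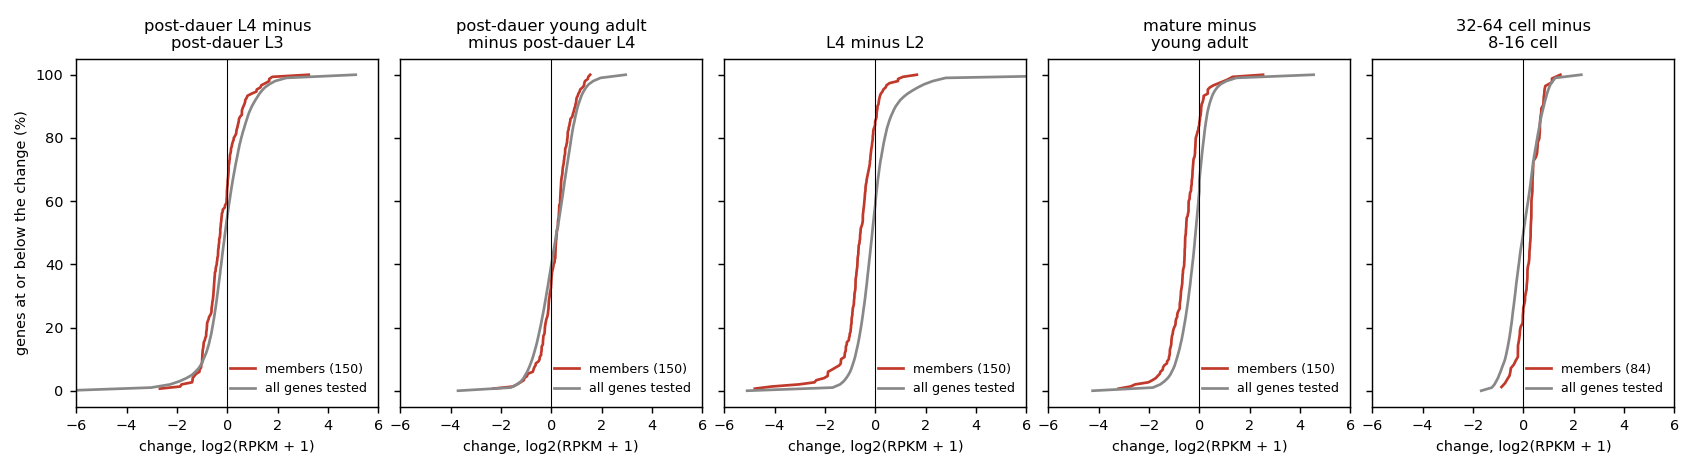
Cumulative share of genes (percent) at or below each change on the log2(RPKM + 1) scale for the 5 tested contrasts, with members in red and all genes tested in grey, in the window from -6 to 6. The members' curve lies left of that of all genes for L4 minus L2, with medians of -0.59 and -0.12, and for mature minus young adults, with medians of -0.53 and -0.15, and lies close to it for post-dauer young adults minus post-dauer L4, with medians of 0.22 and 0.21.

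Embryos held little RNA of most members. In all 20 staged embryo libraries, 48 members (32.0%) stayed under 1 RPKM, against 29.1% of all genes and 406 of the 5257 genes (7.72%) that reached 10 RPKM in both L1 libraries. The rule asked for a lead over embryos, so this is a description. In the latest stages, 100-150 and 150-200 cells, 73 members reached 1 RPKM in both libraries. Only 26 members reached 10 RPKM in some staged embryo library. L1 exceeded each embryo stage by a median of 3.74 to 4.55 on the log2 scale.

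Within embryos the order of stages was open to a test, since the rule used only the mean of 8-16 to 32-64 cells. Of the 150 members, 84 passed the filter of 1 RPKM in at least 2 libraries of the embryo fit, so the counts speak for these alone. The filter used the tested libraries too: without 32-64 cell replicate 3 only 74 passed, so it can favour members high in that stage. Between 32-64 and 8-16 cells, none of the 84 members and none of 9332 genes was called, 0% of all genes in either direction. At an unadjusted p under 0.05 there were 2 members, both higher in 32-64 cell embryos, against 8.34% of all genes. The median change was 0.29 for members and 0.00 for all genes, with 62 higher and 22 lower. Without the filter it was 0.08 for all 150 members and 0.00 for all genes, with 92 members higher and 53 lower. All 3 libraries of 32-64 cells lay above all 3 of 8-16 cells for 6 members (7.94% of all genes) and below them for 1 (12.1%). Without 32-64 cell replicate 3 the median was -0.06 for the 74 members then tested and -0.18 for all genes, so the positive sign rested on this library.

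Among these, Oti_g09500 had 23.0, 29.1 and 57.2 RPKM in 32-64 cell embryos and 8.39, 10.96 and 16.5 RPKM in 8-16 cell embryos. The groups did not overlap, and the log2 change was 1.47 ± 0.55 with an adjusted p of 0.592. Oti_g13530 had 1.52, 13.3 and 47.0 RPKM in 32-64 cell embryos and 0.90, 7.56 and 8.98 RPKM in 8-16 cell embryos, with overlap but higher in each of the 3 same-numbered pairs. On the lower side, Oti_g01738 had 1.16, 0.48 and 2.00 RPKM in 32-64 cell embryos and 2.13, 1.88 and 5.46 RPKM in 8-16 cell embryos. Oti_g02360 had 75.1, 23.8 and 39.8 RPKM in 32-64 cell embryos and 77.2, 65.0 and 67.0 RPKM in 8-16 cell embryos. Both overlapped between stages and were lower in 32-64 cell embryos in each of the 3 same-numbered pairs. Their adjusted p-values were 0.623 and 0.622, and with the replicate number as a block 0.588 and 0.588, so the block gave no call.

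L1 replicate 1 is the one L1 library that the rule left out, and it did not carry the members at L1 level. Its members' median was 6.28 RPKM and its share of all RPKM 0.462%. L1 replicates 2 and 3 exceeded replicate 1 by a median of 2.09 on the log2 scale for members and 0.25 for all genes. Replicate 1 lay below both others for 146 members, against 50% of all genes. Members were chosen for high values in replicates 2 and 3, which raises both of these contrasts with all genes. Replicate 1 lay above both for 2, Oti_g09193 and Oti_g11012, named after their values were seen, and between them for 2. Replicate 1 reached 10 RPKM for 51 members and exceeded the mean of the second group for 12. It lay above every staged embryo library for 112 members, against 24.3% of all genes. The rule asked for a lead of L1 over embryos, which raises this contrast too. The low levels in replicate 1 were measured beside the correlation with 150-200 cell embryos given above, and the part of that likeness in them was not tested.

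**Figure D5:**
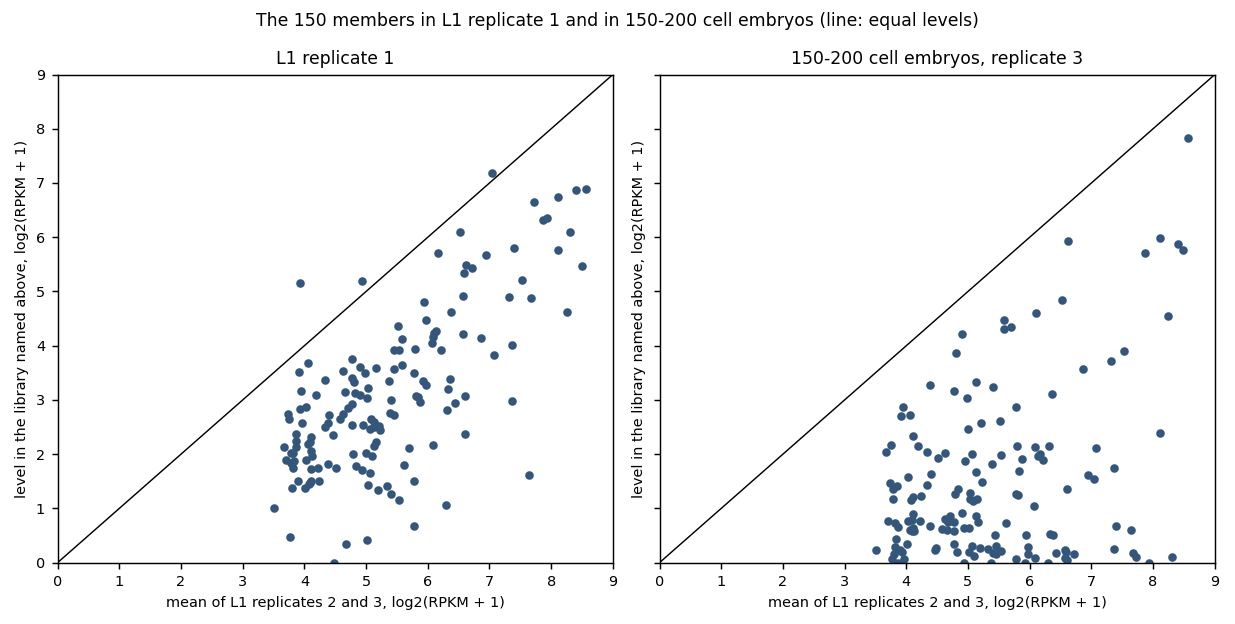
Level of each member on the log2(RPKM + 1) scale in L1 replicate 1 (left) and in the 150-200 cell embryo library (right) against the mean of L1 replicates 2 and 3, with the line of equal levels. In the left panel nearly all points lie under the line, 146 of 150 below both other L1 libraries, and they lie higher than those in the right panel.

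L1 replicate 1 was also set against post-dauer L3, as values that the rule did not use, with no test since 1 side is a single library. The median difference of L1 replicate 1 minus post-dauer L3 was -0.73 for members and -0.54 for all genes. It was at least 1 for 15 members (10.9% of all genes) and at most -1 for 58 (31.7%). The share of members on the high side was thus near that of all genes. The medians were -0.69 for members and -0.13 for all genes without post-dauer L3 replicate 1, and -0.73 and -0.78 without replicate 2. With silent-gene medians taken off they were -0.59 and -0.10. How far the members stood below all genes thus depended on post-dauer L3 replicate 1 and on this subtraction. Leaving out either post-dauer L3 library gave 13 and 20 members at 1 or more, and 62 and 64 at -1 or less.

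The 150 genes with dauer second and the largest margin, chosen in the same way, were the most like list. In L1 replicates 2 and 3 its median was 25.4 and 24.3 RPKM, against 33.0 and 35.1 RPKM for the members. It was lower in L2 (12.4 and 14.5 RPKM), L4 (8.1 and 7.9) and mature adults (2.12 and 4.18), as for the members. Staged embryo libraries held 0.14 to 1.355 RPKM. The fall after L1 and the low embryo levels were thus not particular to the members. In L1 replicate 1 the median was 6.28 RPKM for the L1-peaking members and 4.93 RPKM for the list with dauer second. In post-dauer L3 it was 10.3 and 11.7 RPKM for the members and 8.75 and 8.26 RPKM for the other list. The difference of post-dauer L3 minus dauer had a median of -0.14 for the members and -0.71 for the list with dauer second, where the list with dauer second had been chosen with its dauer values. No test was run between the lists.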

How the data were processed

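Per the labels' protocols, libraries were made from total RNA of embryos and whole worms after depletion of ribosomal RNA. The authors deposited RPKM values, not whole and with library sums of 371389 to 860569, for 14558 gene IDs in 48 libraries. The submitters' processing notes name HTSeq 2.0.2, StringTie 2.2.0, STAR 2.7.10 and Bowtie2 2.4.2 without roles. The build of the genome and its gene models are not given in the sources used. How reads shared by overlapping or near-identical genes were counted is not stated. Read counts are not given by the values. In the low values, 1 read was worth 1.05 times as much in L1 replicate 2 as in L1 replicate 3, and 1.30 times in L1 replicate 1, up to a small whole factor. Precision is limited by the few libraries of each group. Of values above 1 RPKM, at most 0.438% were equal between any 2 libraries, so none was a duplicate.

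Groups are the stages in the labels. For L2 to L4 the columns and the labels number the replicates differently, so these are called library 1 and 2. Values were tested as log2(RPKM + 1), which understates the change of low genes, with limma 3.58.1 in R 4.3.3 (trend, robust, Benjamini-Hochberg adjustment over all genes tested). The first fit took the 12 larval, dauer and adult groups and the other the 2-4 to 64-128 cell embryos; genes with 1 RPKM or more in at least 2 libraries of a fit were kept, 14446 and 9332. The functions were tested on simulated data. Named genes are the 2 members of largest margin in each class of at least 5 members and, per contrast, the 2 members of largest change in each direction, since none was called. Gene lists and markers need names and were not analysed here. Members, lists and tests were chosen with earlier results of these data known.

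Alternatives were a pseudocount of 0.1, no filter, quantile normalization, only the 2 groups compared, no trend, each library left out, the replicate number as a block, and each library's silent-gene median taken off. Replicate numbers pair the 32-64 and 8-16 cell libraries: across genes, the deviations from the group mean of libraries with 1 number correlated at 0.778, 0.465 and 0.617. The worm contrasts have 2 shared numbers, and their deviations correlated at 0.441 to 0.561, too few pairs to show pairing.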

Additional observations from a re-analysis of the deposited data

How the results depend on the processing

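With the same rule, 147 of the 150 members were kept with a pseudocount of 0.1 and 111 with silent-gene medians taken off, but 84 after quantile normalization, 92 with all 3 L1 libraries as L1, 78 when each other group was represented by its highest library, and 97 without the 5 libraries named in the report, an alternative chosen after seeing the data. With all 3 L1 libraries as L1, also chosen after seeing the data, 48 members were highest in L1 among single stages. In that setting 2 members had all L1 libraries above every other, and the shares of all genes were not counted.

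For post-dauer L4 against post-dauer L3, leaving out 1 library gave medians of -0.42 to -0.14 and 0 to 1 members called. For post-dauer young adults against post-dauer L4, it gave 0 to 1 called, and the median was -0.23 with silent-gene medians taken off. For L4 against L2 the medians ran from -0.61 to -0.50, with 0 called in each, while 24 were called with only the 2 groups in the fit. For mature against young adults 0 to 3 were called. The median of L1 replicate 1 minus post-dauer L3 was -0.59 with silent-gene medians taken off. For Oti_g07153, -2.30 in post-dauer young adults against post-dauer L4, leaving out 1 library gave -5.83 to 1.23, with the sign reversed without post-dauer young adult replicate 1. For Oti_g14430, 1.32 in mature against young adults, it gave -0.38 to 3.03, with the sign reversed without young adult replicate 1. The causes were not tested. With the replicate block, 0 members were called in each of the 4 contrasts it could be fitted to, as without it. No paired analysis was possible for L4 against L2 because the digits in their column names could not be matched to the replicate numbers in the labels. Under the alternatives run, 116 values that answer a comparison kept their direction and side of the threshold, or stayed within the spread or 1.5 times the count, and the 16 that did not are those above. Read depth is unknown, so no limit from depth can be given.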

Other observations

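Members with consecutive ID numbers formed 3 pairs, of which Oti_g06424 and Oti_g06425 had 15.3 and 12.8 RPKM in L1 replicate 2, 39.0 and 34.9 RPKM in L1 replicate 3, and 0.26 and 0 RPKM in L1 replicate 1. Another member lay within 1 ID number for 6 of the 150 members, within 3 for 23 and within 5 for 36. In the list of 150 genes with dauer second, the counts were 16, 32 and 37. Whether ID numbers follow position on the chromosomes is not given in the sources used here. In mixed worms, which entered no comparison, the members' median was 7.49 and 7.24 RPKM, and in mixed embryos 1.95 RPKM.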
